A study of Mus musculus with 8 samples.

Results

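The S100 genes of myeloid cells were followed in sorted mouse mononuclear phagocytes. The set holds 8 genes, S100a1, S100a4, S100a6, S100a8, S100a9, S100a10, S100a11 and S100a13, of 19938 genes named by single-symbol probe sets on the Affymetrix arrays. They were chosen by gene symbol, and each gene was read from its probe set with the highest mean over the 8 arrays. Every array held RNA of cells sorted from C57BL/6 mice of the genotype Cx3cr1gfp/+, in which 1 copy of the gene for the chemokine receptor CX3CR1 is replaced by a green fluorescent protein. Sorting used the level of CX3CR1, high (CX3CR1hi) or intermediate (CX3CR1int), with F4/80hi marking macrophage-like cells and Ly6Chi marking classical monocytes.

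At steady state 4 populations were profiled: splenic Ly6Chi monocytes and, from the colon, CX3CR1hi F4/80hi cells, CX3CR1hi macrophages named resident, and CX3CR1hi macrophages named monocyte-reconstituted. The 4 colitis arrays, from day 4 of the dextran sodium sulphate model (a detergent-like polymer that injures the colonic lining), held splenic Ly6Chi monocytes and 3 colonic populations, CX3CR1int Ly6Chi, CX3CR1int Ly6Clo and CX3CR1hi F4/80hi. The sex label was female for the steady-state splenic, reconstituted and resident arrays, and male for 5 arrays. Each of the 8 groups had 1 array, and the labels give neither the age nor the number of mice behind it, nor the cells removed from or transferred into the hosts of the reconstituted macrophages.

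S100 proteins are small calcium-binding proteins of the EF-hand class, most of which work as pairs. Inside the cell they bind targets such as annexins and cytoskeletal proteins when calcium rises. Some are released by myeloid cells and signal through receptors such as TLR4 and RAGE. S100A8 and S100A9 join into calprotectin, which sequesters metal ions, is abundant in neutrophils and classical monocytes and is measured in stool as a marker of intestinal inflammation.

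The 8 genes lie in clusters on mouse chromosome 3 in the RefSeq annotation of GRCm38.p6. S100a1 and S100a13 are neighbours, as are S100a8 and S100a9, and S100a11 and S100a10, the last pair separated from S100a9 by 56 protein-coding genes. Promoter sequences of RefSeq were matched for 7 of the 8 genes, S100a10 being the exception. Those of S100a4 and S100a11, whose levels separated CX3CR1hi cells from the rest, and of the calprotectin gene S100a8 are shown. They are given 5′ to 3′ as the 250 bases before the transcription start on the plus strand of GRCm38.p6. The positions are chr3:90603520-90603769 for S100a4, chr3:90668821-90669070 for S100a8 and chr3:93520246-93520495 for S100a11. Capitals mark matches on either strand to a TATA box (TATAAA), a PU.1 core (GAGGAA, read TTCCTC on the other strand) or an AP-1 element (TGANTCA).
S100a4: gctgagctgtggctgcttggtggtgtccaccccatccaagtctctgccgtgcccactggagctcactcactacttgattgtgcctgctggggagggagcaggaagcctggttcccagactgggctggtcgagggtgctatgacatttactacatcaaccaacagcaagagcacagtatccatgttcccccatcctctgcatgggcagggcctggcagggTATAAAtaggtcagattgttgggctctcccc
S100a8: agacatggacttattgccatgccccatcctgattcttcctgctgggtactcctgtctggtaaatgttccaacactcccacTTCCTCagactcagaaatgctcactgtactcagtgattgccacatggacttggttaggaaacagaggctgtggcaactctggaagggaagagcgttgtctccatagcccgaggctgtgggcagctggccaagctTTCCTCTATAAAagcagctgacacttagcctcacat
S100a11: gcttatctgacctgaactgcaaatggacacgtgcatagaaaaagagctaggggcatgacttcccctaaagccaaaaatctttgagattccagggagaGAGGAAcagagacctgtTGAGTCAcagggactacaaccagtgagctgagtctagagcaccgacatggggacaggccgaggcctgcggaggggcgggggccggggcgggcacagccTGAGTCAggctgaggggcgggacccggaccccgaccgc
S100a4 and S100a8 carried a TATA box, 31 and 30 bases before the start. The S100a8 window held PU.1 cores 170 and 36 bases before the start, the nearer one abutting the TATA box. S100a11 had no TATA match but a PU.1 core 153 bases before the start and AP-1 elements 136 and 38 bases before it. Over windows that run 250 bases before to 50 after the start, TATAAA was present in 13.6% of 32851 RefSeq promoters, GAGGAA in 28.3%, TGANTCA in 7.81% and a C/EBP element (TTGCNNAA) in 10.8%. In those longer windows S100a4 had 1 more PU.1 core, 19 bases after the start, and S100a9 had a C/EBP match 236 bases before it and a TATA match at it. None of these 4 motifs was matched in the windows of S100a1, S100a6 or S100a13. A match is a string of letters, and binding was not measured.

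Values are log2 levels normalized across arrays, with array medians between 5.77 and 5.87 over all probe sets. A level below the array median was taken as too dim to order, and levels of different genes were not compared. Where one side of a difference was that dim, the difference is as measured, and the fold is a lower bound with dim values raised to their array's median. Macrophage markers averaged 11.75 to 11.95 in the 4 CX3CR1hi arrays, against 9.28 to 9.94 elsewhere, and 7 of 7 measured monocyte markers were at or above the array median in both splenic arrays. In the Ly6Clo array 7 of 7 dendritic cell markers were above the median, with a mean of 9.84, against 6.18 to 7.44 in the other arrays. Epithelial markers averaged 8.84 to 10.80 in the 6 colonic arrays, with 11 or 12 of 12 at or above the median, and 5.14 and 5.71 in the splenic ones. Stromal markers averaged 6.11 to 7.46 in the colonic and 5.40 and 5.41 in the splenic arrays, Dcn reaching 9.77 to 11.43 in the colon. Of the lymphocyte markers, Jchain was at 10.71 to 12.46 and Igha at 9.31 to 12.21 in the colonic arrays. In the splenic ones these 2 were at 6.02 to 7.03 and 6.13 to 6.49. Other measured lymphocyte markers were at most 7.24 in any array. The part of such RNA in the S100 levels was not tested. The steady-state splenic array, labelled female, had Xist at 10.04 together with the Y-linked genes Eif2s3y at 10.28, Kdm5d at 8.38 and Uty at 8.46, so its RNA did not match a single sex. Contrasts of the S100 genes with splenic cells are given with and without it, as are the counts of the gene lists, and the pairs of single arrays that hold it have no other steady-state splenic array to replace it.

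**Figure D1:**
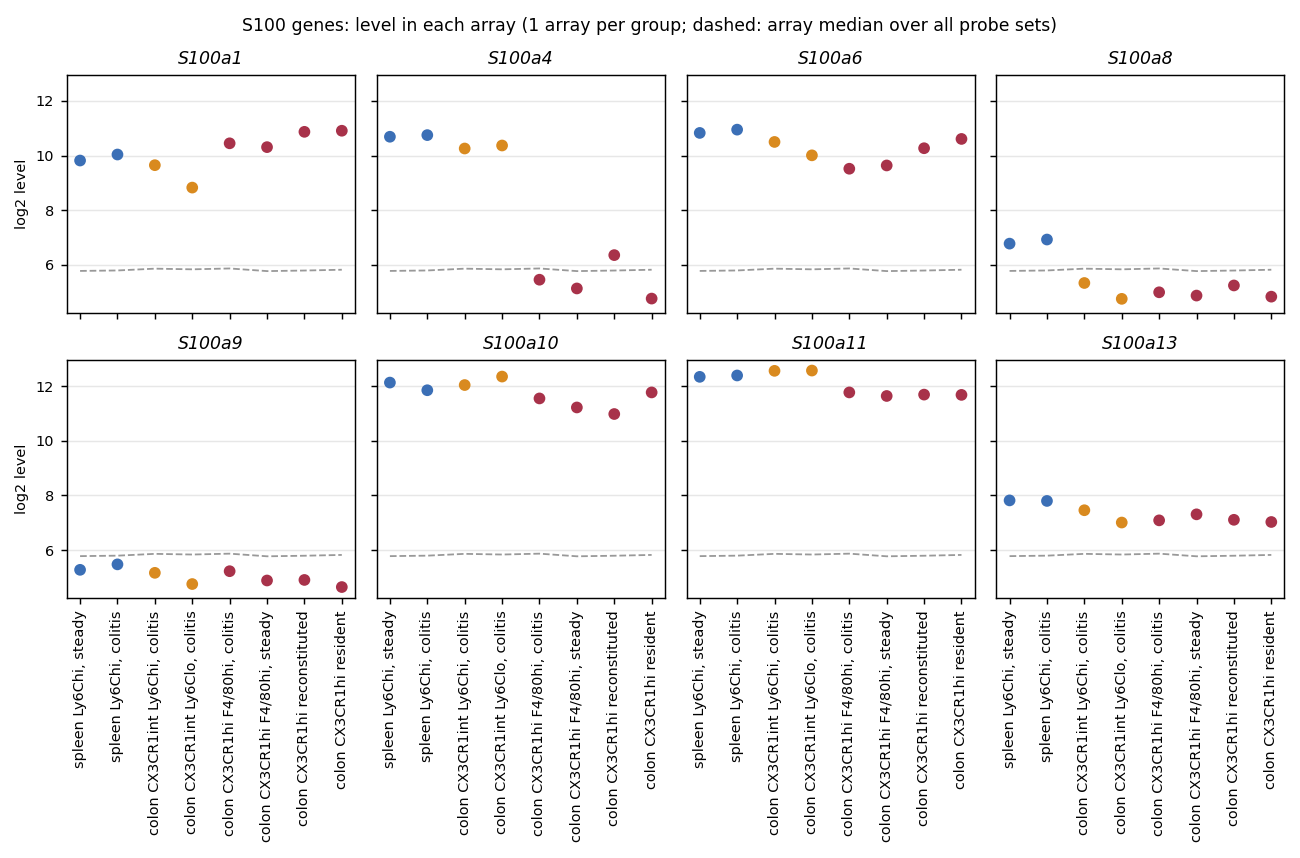
Log2 level (y axis) of each S100 gene in each of the 8 arrays (x axis, 1 point per array; blue, splenic monocytes; orange, colonic CX3CR1int cells; red, colonic CX3CR1hi cells), with the array median over all probe sets as a dashed line. S100a4 stands at 10.26 to 10.75 in splenic and CX3CR1int arrays and at 4.77 to 6.36 in CX3CR1hi arrays, while S100a8 is above the median only in the splenic arrays and S100a9 in none.

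To compare populations, the 4 CX3CR1hi, 2 CX3CR1int and 2 splenic arrays were fitted together with limma, and p-values were adjusted by Benjamini-Hochberg over the 10673 genes that reached the median of 2 or more arrays. Arrays of 1 population differ in colitis, origin, Ly6C or labelled sex, so the p-values measure the spread among such arrays and not among replicate mice. Both CX3CR1int arrays were from colitis and labelled male. Of the 4 CX3CR1hi arrays 3 were from steady state, and the resident and reconstituted ones were labelled female. In the fit, a CX3CR1int difference therefore cannot be told apart from one of colitis or labelled sex. Pairs of colitis arrays, all labelled male, are given below. The 3 contrasts share arrays and are not independent of each other. In these bulk samples, fewer cells that express a gene and less RNA per cell cannot be told apart.

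S100a4 separated the populations more widely than any other S100 gene measured here. It encodes a calcium-binding partner of non-muscle myosin that is linked to cell motility. Its log2 level was 10.69 in steady-state and 10.75 in colitis splenic monocytes, 10.26 in CX3CR1int Ly6Chi and 10.37 in CX3CR1int Ly6Clo cells, 5.46 in colitis and 5.14 in steady-state F4/80hi cells, 6.36 in reconstituted and 4.77 in resident macrophages. The 4 splenic and CX3CR1int arrays were high, the 4 CX3CR1hi arrays were low, and the groups did not overlap: the gap between the lowest high array and the highest low one was 3.89. Within the high group neighbours in the order were 0.06 to 0.32 apart, the widest step being from splenic to CX3CR1int arrays. The SD was 0.039 over the splenic and 0.078 over the CX3CR1int arrays. It was 0.835 over the 3 steady-state CX3CR1hi arrays, where the resident and F4/80hi values were dim, so that SD does not measure spread at the high level. Below it, only the reconstituted macrophages reached the array median, 0.90 above the next array.

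S100a4 was at least 27.1-fold lower in CX3CR1hi than in splenic cells (measured log2 difference -5.28 ± 0.38 SE, limma adjusted p = 3.99e-05) and at least 20.4-fold higher in CX3CR1int than in CX3CR1hi cells (4.88 ± 0.38, adjusted p = 0.000243). These are bounds because 3 of the 4 CX3CR1hi arrays, and their mean of 5.43, lay below the array median. Both calls held in each of 17 alternative settings, with ranges of -5.59 to -5.06 and 4.65 to 5.19. Without the steady-state splenic array the first was -5.31 ± 0.53 (adjusted p = 0.0011). CX3CR1int and splenic cells differed by -0.41 ± 0.44 (limma adjusted p = 0.525), and by -0.43 without that array. The first was smaller than its SE, which also carries the spread of the mostly dim CX3CR1hi arrays.

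S100a4 stayed at the monocyte level in the Ly6Clo array, where some monocyte markers did and others did not. Its 10.37 there stood beside 5.64 for Vcan (versican), 4.60 for Chil3 (a chitinase-like protein) and 4.78 for Hp (haptoglobin), which were at 11.28, 9.28 and 10.62 in the Ly6Chi array. Of the other 4 measured monocyte markers, Plac8 and Ccr2 stayed high, at 11.60 and 11.09 against 12.32 in the Ly6Chi array for each, while Fn1 was at 9.65 against 12.18 and F10 at 6.77 against 10.92. The dendritic cell genes Flt3, at 11.16, and Ccr7, at 11.66, were highest in the Ly6Clo array, and their part in the S100a4 level was not tested. S100a4 was above the array median in reconstituted macrophages and below it in resident ones (measured log2 difference 1.60, 1 array each), which bounds the fold at 1.45 or more, with monocyte markers at a mean of 6.92 and 6.94 respectively. As measured, 1.76% of genes were 2-fold apart between those arrays, with 1 of 6 S100 genes, S100a4. With dim values raised to the median the share was 1.44%, with 0 of 6.

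The 5 genes closest in profile to S100a4 over the 8 arrays, by root mean square distance between centred log2 profiles among 10205 genes, were Mcemp1 (0.401), Napsa (0.427), Klrb1f (0.593), Itgb7 (0.702) and Ly6i (0.747). Mcemp1 encodes a mast cell and myeloid membrane protein and stood at 9.37 to 10.29 in splenic and CX3CR1int arrays and at 5.06 to 6.16 in CX3CR1hi arrays. Itgb7, the integrin beta 7 chain, stood at 9.08 to 9.61 and 4.89 to 5.33. Likeness is a description of 8 arrays and was not tested.

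**Figure D2:**
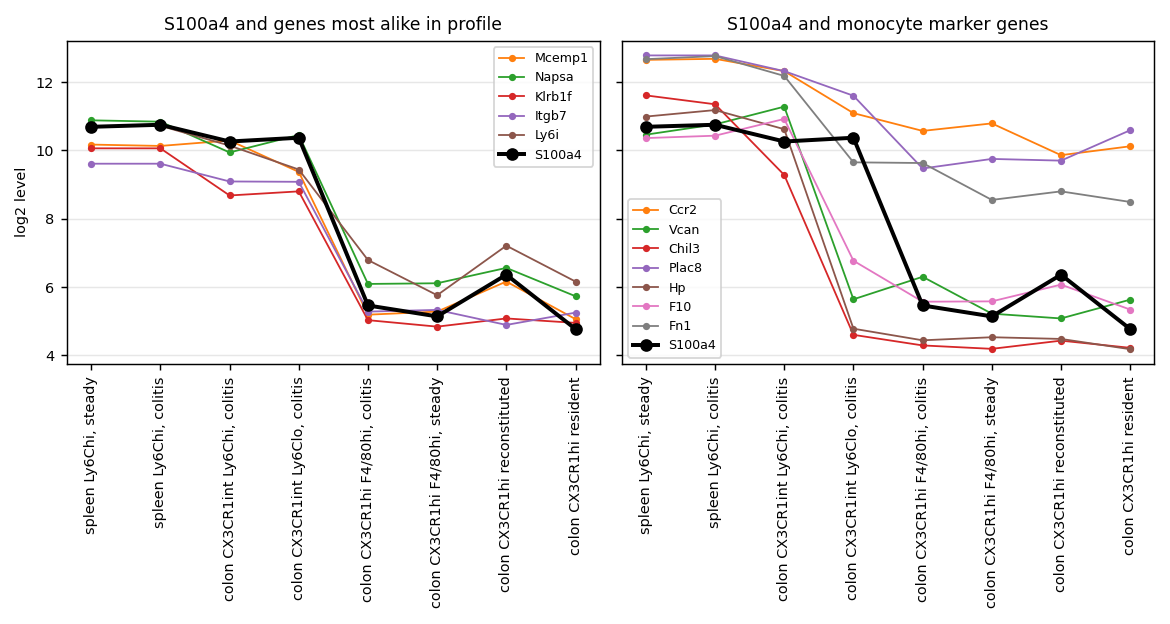
Log2 level (y axis) of S100a4 (black) across the 8 arrays (x axis) beside the 5 genes most alike in profile (left) and the 7 measured monocyte markers (right). In the CX3CR1int Ly6Clo array S100a4 is at 10.37 while Vcan, Chil3 and Hp are at 4.60 to 5.64.

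The calprotectin genes were dim on these arrays. S100a8 measured 6.78 in steady-state and 6.93 in colitis splenic monocytes, 5.34 in CX3CR1int Ly6Chi and 4.76 in CX3CR1int Ly6Clo cells, 5.00 in colitis and 4.88 in steady-state F4/80hi cells, 5.25 in reconstituted and 4.84 in resident macrophages. Only the 2 splenic arrays were above the array median, 1.43 above the next array, and the 6 colonic values have no order. S100a9 was 5.28 and 5.48 in steady-state and colitis splenic monocytes and 4.65 to 5.23 in the 6 colonic arrays, below the array median in all 8. It was not tested, and its values have no order.

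S100a8 passed the filter on dim genes only through the splenic arrays, where it is high, so a difference from them follows from the filter. No test of it is given. Its mean was 6.85 in splenic cells, against 4.99 in CX3CR1hi and 5.05 in CX3CR1int cells. With the colonic values raised to the array median, S100a8 was at least 2.05-fold lower in CX3CR1hi cells than in splenic cells.

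Neutrophil markers averaged 6.80 and 6.89 in the splenic arrays and 5.45 to 6.59 in the colonic arrays, with 4 to 7 of 14 at or above the median. The granule genes Camp, Ltf and Mpo were below the median in all 8 arrays, at most 4.71, 4.69 and 5.03, as was Cxcr2. Mmp8 was at 10.59 and 10.74 in the steady-state and colitis splenic arrays and 9.22 in the Ly6Chi array. In the same splenic arrays Csf3r was at 10.97 and 10.95, Cd177 at 10.46 in each, Lcn2 at 8.49 and 9.05 and Padi4 at 7.23 and 7.33. Ngp and Retnlg reached the median in the colitis splenic array and Elane in the steady-state one, while Ly6g and Mmp9 were below it in both. Other values were higher in the colon. Ly6g was at 6.93 to 9.30 in the colonic arrays, above the median in each. Mmp9 was at 11.88 in reconstituted macrophages, and Retnlg at 8.67 in the Ly6Chi array. Csf3r was at 8.27 to 10.58 and Cd177 at 6.31 to 9.34 in the colonic arrays. The part of neutrophil RNA in the S100a8 level was not tested. The genes closest in profile to S100a8 were Scarb1 (0.101), Mirt1 (0.119), Ampd3 (0.138), Ip6k3 (0.143) and Ceacam19 (0.194). Scarb1, a scavenger receptor for high-density lipoprotein, measured 10.61 and 10.76 in the splenic and 8.75 to 9.46 in the colonic arrays.

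S100a11 was high on every array and differed between populations by less than 2-fold but with little spread. It encodes an annexin A1 partner. Its level was 12.34 in steady-state and 12.39 in colitis splenic monocytes, 12.56 in CX3CR1int Ly6Chi and 12.57 in CX3CR1int Ly6Clo cells, 11.77 in colitis and 11.64 in steady-state F4/80hi cells, 11.69 in reconstituted and 11.68 in resident macrophages. The CX3CR1int arrays were highest, the splenic arrays next and the CX3CR1hi arrays lowest, with no overlap. The 0.56 between the lowest splenic and the highest CX3CR1hi array compares with an SD of 0.025 among the 3 steady-state CX3CR1hi arrays. A second probe set of the gene ran from 11.50 to 12.60 and placed the populations in the same order of high and low. Whether the brighter probe set, used here, matches S100a11 alone was not tested.

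S100a11 was 1.59-fold lower in CX3CR1hi than in splenic cells (-0.67 ± 0.10, limma adjusted p = 0.0012) and 1.83-fold higher in CX3CR1int than in CX3CR1hi cells (0.87 ± 0.10, adjusted p = 0.00114). The first stood at -0.70 ± 0.15 without the steady-state splenic array (adjusted p = 0.0168). CX3CR1int and splenic cells differed by 0.20 ± 0.12 (adjusted p = 0.232), and by 0.18 without it (adjusted p = 0.552).

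S100a10 forms a complex with annexin A2 that binds plasminogen at the cell surface. It measured 12.13 and 11.85 in steady-state and colitis splenic monocytes, 12.04 in CX3CR1int Ly6Chi and 12.35 in CX3CR1int Ly6Clo cells, 11.55 in colitis and 11.22 in steady-state F4/80hi cells, 10.98 in reconstituted and 11.77 in resident macrophages. The CX3CR1hi arrays were the lowest 4, but no step between neighbours in the order exceeded the SD of 0.402. It was 1.75-fold higher in CX3CR1int than in CX3CR1hi cells (0.81 ± 0.23, limma adjusted p = 0.0336), a call lost in 9 of 17 alternatives, with adjusted p up to 0.136. Among these, leaving out the Ly6Clo, reconstituted, steady-state F4/80hi or either splenic array ended it. Against splenic cells, CX3CR1hi cells stood at -0.61 ± 0.23 (adjusted p = 0.0584), and at -0.47 without the steady-state splenic array (adjusted p = 0.3). CX3CR1int cells stood at 0.20 ± 0.27 against splenic cells (adjusted p = 0.6), and at 0.34 without that array (adjusted p = 0.575).

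S100a6, known as calcyclin, binds annexins and a ubiquitin ligase adaptor. It measured 10.83 and 10.95 in steady-state and colitis splenic monocytes, 10.50 in CX3CR1int Ly6Chi and 10.01 in CX3CR1int Ly6Clo cells, 9.52 in colitis and 9.64 in steady-state F4/80hi cells, 10.27 in reconstituted and 10.61 in resident macrophages. The splenic arrays were highest, but the resident macrophages were only 0.22 below them and every step between neighbours was under the SD of 0.492. The difference of CX3CR1hi from splenic cells was -0.88 ± 0.32 (limma adjusted p = 0.0492) and was no longer called in 8 of 17 alternatives. Without the steady-state splenic array it was -0.94 ± 0.44 (adjusted p = 0.153), and it was also lost without the colitis splenic, reconstituted or either F4/80hi array. CX3CR1int cells differed from CX3CR1hi cells by 0.24 ± 0.32 (adjusted p = 0.6) and from splenic cells by -0.64 ± 0.37 (adjusted p = 0.234), the latter being -0.70 without the steady-state splenic array (adjusted p = 0.417).

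S100a1, best known from heart muscle as a regulator of calcium handling, differed between CX3CR1int and CX3CR1hi cells in the direction opposite to S100a4. Its level was 9.82 and 10.04 in steady-state and colitis splenic monocytes, 9.65 in CX3CR1int Ly6Chi and 8.83 in CX3CR1int Ly6Clo cells, 10.45 in colitis and 10.31 in steady-state F4/80hi cells, 10.87 in reconstituted and 10.91 in resident macrophages. The 4 CX3CR1hi arrays were highest and the Ly6Clo array lowest, 0.82 below the next, against an SD of 0.338. The lowest CX3CR1hi array was only 0.27 above the colitis splenic array, less than that SD. S100a1 was 2.63-fold lower in CX3CR1int than in CX3CR1hi cells (-1.40 ± 0.27, limma adjusted p = 0.00849), a call that held in each of 17 alternatives, with a range of -1.81 to -0.99. Its value in CX3CR1hi relative to splenic cells was 0.70 ± 0.27 (adjusted p = 0.0576), and in CX3CR1int relative to splenic cells -0.69 ± 0.31 (adjusted p = 0.137). Without the steady-state splenic array these were 0.60 (adjusted p = 0.261) and -0.80 (adjusted p = 0.276). The genes closest in profile were Klc4 (0.103), Pdk2 (0.155), Gdf3 (0.161), Tmem41a (0.189) and Ethe1 (0.206).

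S100a13, which takes part in the release of proteins without a signal peptide such as FGF1 and interleukin 1 alpha, measured 7.82 and 7.80 in steady-state and colitis splenic monocytes, 7.46 in CX3CR1int Ly6Chi and 7.01 in CX3CR1int Ly6Clo cells. It was 7.09 in colitis and 7.31 in steady-state F4/80hi cells, 7.11 in reconstituted and 7.03 in resident macrophages. The splenic arrays stood 0.35 above the next array, more than the SD of 0.148, and the CX3CR1int arrays lay on both sides of the CX3CR1hi ones. S100a13 was 1.60-fold lower in CX3CR1hi than in splenic cells (-0.68 ± 0.15, limma adjusted p = 0.00757). That call was lost without either splenic array, at adjusted p = 0.06 without the steady-state one and 0.0543 without the colitis one. The difference of CX3CR1int from splenic cells (-0.58 ± 0.18, adjusted p = 0.0492) was lost in 13 of 16 alternatives, among them leaving out any array other than the Ly6Chi one. It was -0.57 without the steady-state splenic array (adjusted p = 0.209). The promoter windows of S100a13 and its neighbour S100a1 share 204 bases on opposite strands, and the 2 genes did not have the same order of arrays.

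**Figure D3:**
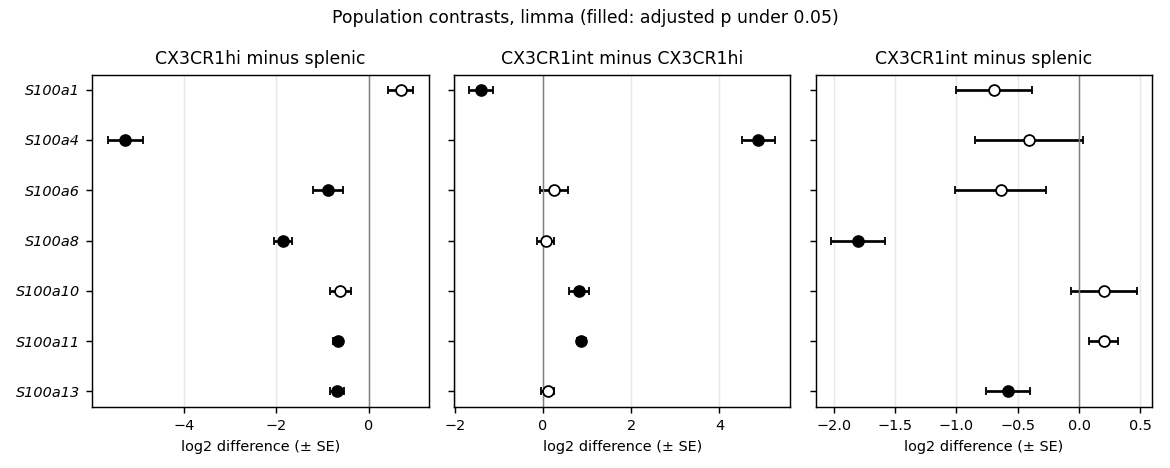
Log2 difference with its SE (x axis) of the 7 tested S100 genes (y axis) in the 3 population contrasts of the limma fit, where filled points have an adjusted p under 0.05. S100a4 lies at -5.28 and 4.88 in the contrasts with CX3CR1hi cells and at -0.41 between CX3CR1int and splenic cells, and the points of S100a8 against splenic cells follow from the filter.

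Counts of called S100 genes were read beside the share of all genes called. In CX3CR1hi against splenic cells, where 51.2% of tested genes passed (22.2% higher and 29.0% lower), 5 of the 7 tested S100 genes were called, 0 higher and 5 lower, with a median difference of -0.68 against -0.12 over all genes. Without the steady-state splenic array 29.7% of genes passed and 2 of 6 S100 genes were called, S100a8 no longer passing the filter. In CX3CR1int against CX3CR1hi cells, where 29.9% passed (13.3% higher and 16.6% lower), 4 of 7 were called, 3 higher and 1 lower, with a median of 0.24 against 0.01. In CX3CR1int against splenic cells, where 24.4% passed (10.2% higher and 14.2% lower), 2 of 7 were called, both lower, with a median of -0.58 against -0.08. Without the steady-state splenic array 5.88% passed, with 0 of 6 S100 genes, and without the colitis one 8.33% passed, also with 0 of 6. S100a9 was not among the 7. S100a8 was there through the splenic arrays alone, and its calls, 1 of the 5 and 1 of the 2 lower than in splenic cells, follow from the filter. The medians of -0.68 and -0.58 include it.

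Differences between single arrays have no replicate check and are given as sizes. Against steady-state splenic monocytes, resident macrophages were at least 2-fold apart for S100a4 (-5.92), S100a8 (-1.94) and S100a1 (1.09), 3 of the 7 S100 genes bright enough to enter, beside 28.4% of all genes. Reconstituted macrophages were so for S100a4 (-4.33), S100a8 (-1.53), S100a10 (-1.15) and S100a1 (1.05), 4 of 7, beside 28.0%. Raising dim values to the array median left 2 of 7 beside 25.1% and 3 of 7 beside 24.8%, S100a8 being at -0.95 and -0.98. These comparisons share the splenic array. The steady-state F4/80hi and resident arrays, both CX3CR1hi, had 0 of 5 apart, beside 3.64%, the widest being S100a6 at -0.97.

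Among colitis arrays, F4/80hi cells were set against 3 others, so these comparisons share the F4/80hi array. S100a4, dim in F4/80hi cells, differed there by -4.79 relative to Ly6Chi cells, -4.91 relative to Ly6Clo cells and -5.28 relative to splenic monocytes. With dim values raised to the median these were -4.38, -4.50 and -4.87. S100a4 was the only 1 of 6 S100 genes 2-fold apart from Ly6Chi cells, beside 14.4% of all genes. From Ly6Clo cells 2 of 6 were apart, with S100a1 at 1.63, beside 19.1%, and from splenic monocytes 3 of 7, with S100a6 at -1.43 and S100a8 at -1.93, beside 24.0%. Ly6Clo and Ly6Chi cells had 0 of 6 apart, beside 12.0%, with S100a1 the widest at -0.82. Ly6Chi cells of the inflamed colon and of the spleen had 1 of 7 apart, S100a8 at -1.58, or -1.06 with the dim value raised to the median, beside 13.7%.

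No S100 gene bright enough to enter was 2-fold apart between colitis and steady state in F4/80hi cells or splenic monocytes. In F4/80hi cells 0 of 5 were apart, beside 1.47% of all genes, with differences from -0.23 (S100a13) to 0.33 (S100a10). In splenic monocytes 0 of 7 were apart, beside 0.708%, with differences from -0.28 (S100a10) to 0.22 (S100a1). S100a4 differed by 0.06 and S100a8 by 0.15 between the splenic arrays, and both were too dim in the F4/80hi pair to be compared. Set against resident macrophages instead, S100a6 was -1.09 in colitis F4/80hi cells.

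**Figure D4:**
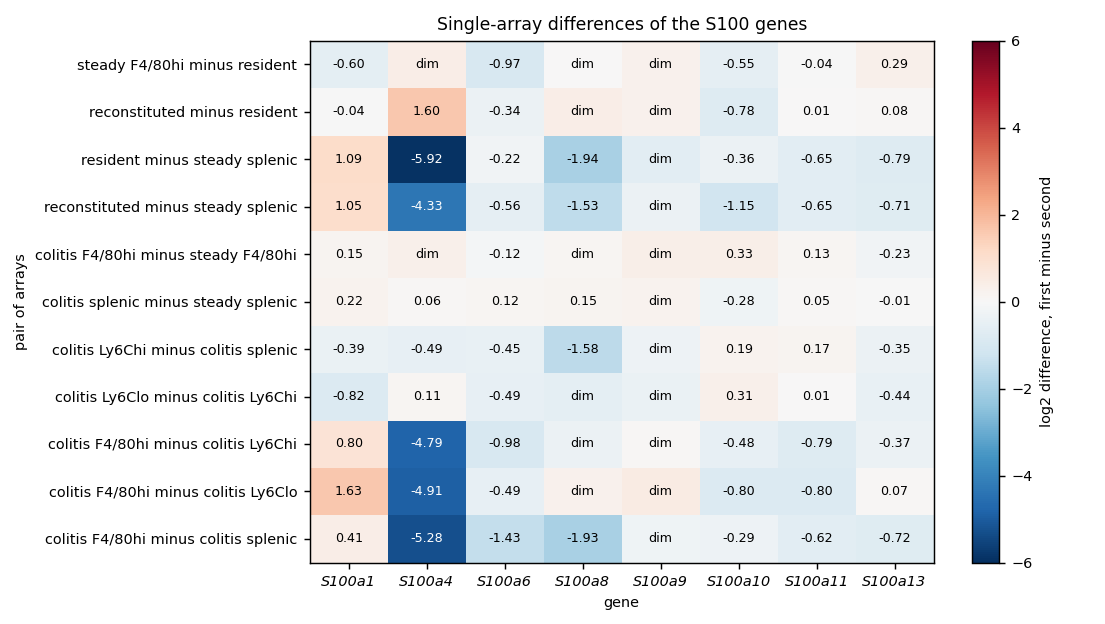
Log2 difference, first array minus second, of each S100 gene (x axis) in 11 pairs of arrays (y axis), where red is higher and blue lower in the first array and "dim" marks a gene below the median of both arrays. S100a4 is between -5.92 and -4.33 wherever a CX3CR1hi array is set against a splenic or CX3CR1int one, and no value reaches 1 in size in the colitis against steady-state pairs.

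The remaining S100 genes were mostly dim: of 8 others measured, 7 were not tested. S100a16, a broadly expressed member, was the exception at 5.98 and 6.09 in steady-state and colitis splenic monocytes, 7.44 in Ly6Chi and 7.64 in Ly6Clo cells, 8.54 and 8.44 in colitis and steady-state F4/80hi cells, 8.95 in reconstituted and 9.32 in resident macrophages. The populations did not overlap, and S100a16 was 6.86-fold higher in CX3CR1hi than in splenic cells (2.78 ± 0.24, limma adjusted p = 9.68e-05), and at 2.73 ± 0.34 without the steady-state splenic array (adjusted p = 0.00241). S100a14, an epithelial member, was above the array median only in the resident array, at 6.27. The mean of 12 epithelial markers was 10.80 in the resident, 10.30 in the reconstituted, 10.09 and 9.97 in the steady-state and colitis F4/80hi arrays, 8.84 in Ly6Clo, 9.06 in Ly6Chi and 5.14 and 5.71 in the splenic arrays. Its part in S100a16 and S100a1, which are also highest in the resident array, and in S100a6 and S100a10, was not tested.

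**Figure D5:**
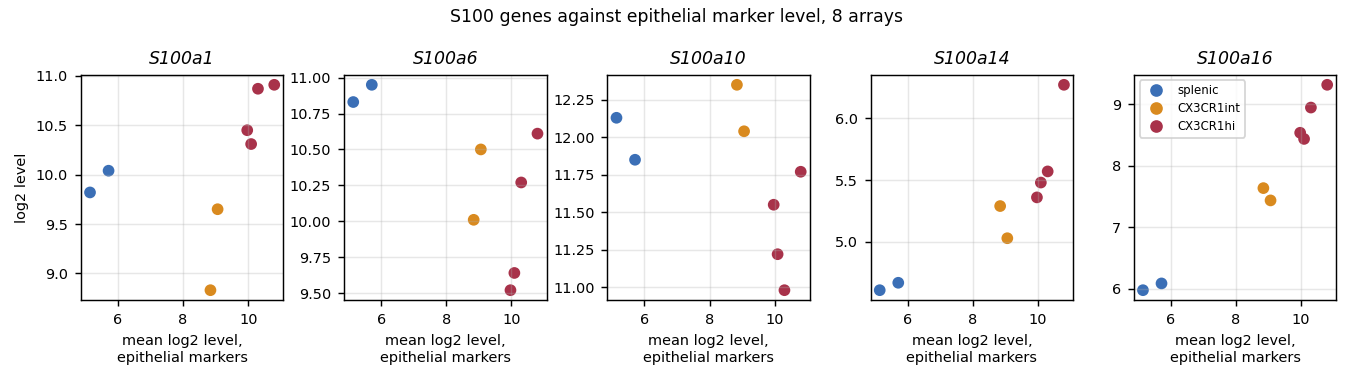
Log2 level (y axis) of S100a1, S100a6, S100a10, S100a14 and S100a16 against the mean log2 level of 12 epithelial markers (x axis) in the 8 arrays, coloured by population. The resident array has the highest epithelial mean, 10.80, and the highest S100a1, S100a14 and S100a16 levels.

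Among the binding partners, annexins split in both directions. In CX3CR1hi against splenic cells 3 of 8 annexins were called higher and 4 lower, beside 22.2% and 29.0% of all genes tested. The annexin median was -0.54. Anxa2, the partner of S100a10, was -1.41 ± 0.17 (limma adjusted p = 0.000475), and Anxa1, the partner of S100a11, -1.70 ± 0.18 (adjusted p = 0.000254), while Anxa3 was 0.88 ± 0.20 (adjusted p = 0.00701). Anxa2 was 1.10 ± 0.17 higher in CX3CR1int than in CX3CR1hi cells (limma adjusted p = 0.00425). In that contrast 1 of 8 annexins was higher and 2 lower (median 0.11), beside 13.3% and 16.6% of all genes. In CX3CR1int against splenic cells 0 rose and 2 fell (median -0.31), beside 10.2% and 14.2% of all genes. Leaving out the steady-state splenic array, the CX3CR1hi contrast kept 1 higher and 3 lower, Anxa1 and Anxa2 among them and Anxa3 not (adjusted p = 0.0541), and the CX3CR1int contrast with splenic cells had 0 called.

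Of 8 tested intracellular targets and cargo proteins, 3 were higher and 1 lower in CX3CR1hi than in splenic cells (median -0.07). The shares of all genes were 22.2% and 29.0%. Fgf1, counted as higher, passed the filter only through the resident and reconstituted arrays, at 6.32 and 6.38, so its call follows from the filter. With dim values raised to the array median its difference was 0.30. Ahnak, a scaffold bound by the S100a10 and annexin A2 complex, was -1.40 ± 0.17 (limma adjusted p = 0.000455). Plau, the urokinase that activates plasminogen, was 4.10 ± 0.31 (limma adjusted p = 4.59e-05). Il1a, an S100a13-dependent cargo, was 5.94 ± 0.63, or 4.91 with both splenic values, which were dim, raised to the array median. Il1a entered through the colonic arrays alone, where it was high, so its size is given without a test. Its calls in the counts against splenic cells carry that limit. Plau and Il1a were opposite in sign to S100a13 and to S100a10, which was not called in that contrast, and a link between them was not tested. The list had 1 higher and 2 lower in CX3CR1int against CX3CR1hi cells (median 0.12), beside 13.3% and 16.6% of all genes. Fgf1 was among the lower ones, at -0.23 with dim values raised to the array median. In CX3CR1int against splenic cells 2 were higher and 1 lower (median 0.12), beside 10.2% and 14.2%. With the steady-state splenic array left out, the CX3CR1hi contrast had 2 higher and 1 lower, Ahnak, Plau and Il1a being those, and the CX3CR1int contrast with splenic cells 1 higher and 0 lower.

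Of 8 tested S100 receptors and co-receptors, 3 were higher and 1 lower in CX3CR1hi than in splenic cells (median 0.44). The shares of all genes were 22.2% and 29.0%. Cd36, a scavenger receptor, was 2.16 ± 0.42 (limma adjusted p = 0.004), Cd14, the TLR4 co-receptor, 2.25 ± 0.59 (adjusted p = 0.0142), and Alcam, an adhesion molecule, -1.24 ± 0.25 (adjusted p = 0.00427). Tlr4 itself was 0.53 ± 0.50 (adjusted p = 0.397), and Ager, which encodes RAGE, was not tested. The counts were 1 higher and 3 lower in CX3CR1int against CX3CR1hi cells (median -0.56), beside 13.3% and 16.6% of all genes. They were 0 and 1 in CX3CR1int against splenic cells (median 0.05), beside 10.2% and 14.2%. When the steady-state splenic array was left out, the CX3CR1hi contrast had 2 higher and 1 lower, with Cd14 lost (1.81, adjusted p = 0.121), and the CX3CR1int contrast with splenic cells had 0 called. Ly96, the TLR4 partner MD-2 and the 1 called there with all arrays, was -1.99 ± 0.55 (limma adjusted p = 0.0352). Without the Ly6Clo array, where its level was 8.69 against 10.77 in the Ly6Chi array, Ly96 was at -0.96 ± 0.17, smaller but of the same sign.

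Of 6 tested transcription factors linked to S100 genes, 1 was higher and 2 lower in CX3CR1hi than in splenic cells (median -0.39). The shares of all genes were 22.2% and 29.0%. Spi1, which encodes PU.1, was -0.57 ± 0.12 (limma adjusted p = 0.00657) and Klf4 0.96 ± 0.17 (adjusted p = 0.00234). In CX3CR1int against CX3CR1hi cells 1 was higher and 2 lower (median -0.01), beside 13.3% and 16.6% of all genes. Stat3 was at 0.85 ± 0.12 (limma adjusted p = 0.00305) and Cebpa at -1.84 ± 0.15 (adjusted p = 0.000275) there. In CX3CR1int against splenic cells 1 was higher and 1 lower (median -0.17), beside 10.2% and 14.2% of all genes. Omitting the steady-state splenic array, 1 was higher and 1 lower in CX3CR1hi cells and 0 higher and 1 lower in CX3CR1int cells relative to splenic cells, and Spi1 was not called without the colitis splenic array (-0.45, adjusted p = 0.0829). Of 7 tested EF-hand genes outside the family, 3 were higher and 1 lower in CX3CR1hi than in splenic cells (median 0.21). Again 22.2% and 29.0% of all genes were so. Aif1, a macrophage actin-bundling protein, was at 1.01 ± 0.15 (limma adjusted p = 0.00121). These EF-hand genes had 0 higher and 2 lower in CX3CR1int against CX3CR1hi cells (median -0.02), beside 13.3% and 16.6% of all genes. Against splenic cells, CX3CR1int cells had 1 higher and 0 lower (median 0.11), beside 10.2% and 14.2%. Aif1 was the 1 still called without the steady-state splenic array in the CX3CR1hi contrast, and 0 were called in the CX3CR1int contrast with splenic cells.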

How the data were processed

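Levels were measured on 8 Affymetrix arrays, 1 per group. The deposited values were log2 signals that the authors normalized with RMA in Partek, per the submitters' processing notes. Versions, settings and build are not given in the sources used here. Of 35399 probe sets, 21789 had 1 gene symbol in the platform annotation, 1621 had several and 11989 had none, and only the first kind was used. Each of 19938 genes took its probe set with the highest mean, and 0 sample columns were left unmapped.

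Population contrasts were fitted with limma 3.58.1 (R 4.3.3, lmFit and eBayes, 5 residual degrees of freedom), with Benjamini-Hochberg adjustment and a threshold of 0.05. Genes that reached the median of 2 or more arrays entered. For a pair of arrays, a gene entered if the brighter array was at or above its median, and 2-fold was the threshold. The fit was tested on simulated data. The rest was computed with Python 3.11.15.

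The members, gene lists and tests were chosen with earlier results of these data known. The text names all members, list genes by role, and, for members ranging over at least 2 log2 units, the 5 genes nearest in profile, predicted genes, receptor families and small RNAs left out. Alternatives changed the filter, normalization, probe set rule, covariates, prior, threshold and arrays. With 1 array per group, the number of arrays limits the precision.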

Additional observations from a re-analysis of the deposited data

Results flagged for a closer look

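S100a6 and S100a10 moved in opposite directions with colitis in the tissues sorted in both conditions. The colitis minus steady-state difference of S100a6 was -0.12 in F4/80hi cells of the colon and 0.12 in splenic monocytes. That of S100a10 was 0.33 in F4/80hi cells and -0.28 in splenic monocytes. Each value comes from 1 array per condition, the difference between tissues was not tested, and all 4 values are smaller than the SD of the same gene over the 3 steady-state CX3CR1hi arrays, 0.492 for S100a6 and 0.402 for S100a10.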

How the results depend on the processing

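The S100a4 contrasts with CX3CR1hi cells and the S100a1 contrast of CX3CR1int with CX3CR1hi cells kept their direction and their side of the threshold in every alternative, and no called value changed sign. Counts of called members were less stable, and except where fewer genes or arrays entered or the threshold rose, the cause was not tested. In CX3CR1hi against splenic cells, 5 called of 7 tested (51.2% of all genes) became 3 of 5 with a filter at the 75th percentile (54.8%) and 2 of 7 with a 2-fold minimum (24.3%). Leaving out arrays in turn gave 2 to 6, with 2 of 6 without either splenic array (29.7% and 31.4%), when S100a8 no longer passed the filter. In CX3CR1int against CX3CR1hi cells, 4 of 7 (29.9%) became 2 of 7 with a 2-fold minimum (13.9%). The count there was 3 of 7 with labelled sex as a block (18.7%), 3 of 8 with no filter (16.2%) and 3 of 6 with the contrast's own arrays (23.3%). In CX3CR1int against splenic cells, 2 of 7 (24.4%) became 0 of 5 with the 75th percentile filter (30.1%), 1 of 8 with no filter (13.6%), and 1 of 7 with repeated quantile normalization (22.6%), labelled sex as a block (17.8%), the contrast's own arrays alone (11.1%), a trended and robust prior (24.8%) or a 2-fold minimum (12.5%), and leaving out arrays gave 0 to 3. Of the comparisons between single arrays, the count fell from 1 to 0 with the 75th percentile filter for reconstituted against resident macrophages (S100a4) and for colitis Ly6Chi cells against splenic monocytes (S100a8). It went from 0 to 1 (S100a6) for colitis F4/80hi cells with the resident array as control. Raising dim values to the array median, an alternative chosen after seeing the data, took it from 1 to 0 for reconstituted against resident macrophages. No paired analysis was possible because each group has 1 array. Signal limits S100a8 and S100a9, which were below the array median in 6 and 8 arrays. The counts against splenic cells include S100a8 where it entered, and under the median filter its calls follow from that filter.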
